A study of Mus musculus with 12 samples.

Results

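The genes described here encode the secreted Wnt proteins, their receptors, their secreted antagonists and a few intracellular parts of the pathway. They were all genes whose array name, or current symbol by accession, was Wnt, Fzd, Sfrp or Dkk followed by a number, or Frzb, Axin1, Axin2, Lef1, Lrp5, Lrp6 or Ctnnb1. The rule found 44 of the 28751 genes on the array: 19 ligands, 12 receptors, 9 antagonists and 4 intracellular members. Of these, 42 passed the filter, a probe whose signal on 1 array or more was well above background, and Dkk4 and Wnt16 were not well above background on any of the 12. For 20 members the signal was well above background on all 12 arrays, and for 22 on some of them.

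Wnt proteins are secreted glycoproteins that bind Frizzled (Fzd) receptors together with the co-receptors Lrp5 and Lrp6. When a Wnt binds, the destruction complex built on Axin1 and Axin2 is inhibited, beta-catenin (Ctnnb1) accumulates, and with Tcf and Lef1 proteins it switches on target genes, Axin2 among them. Secreted Frizzled-related proteins (Sfrp and Frzb) bind Wnts outside the cell, and Dickkopf proteins Dkk1, Dkk2 and Dkk4 act on Lrp5 and Lrp6. In mouse embryonic stem cells, Wnt and beta-catenin signalling is known for supporting self-renewal.

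Total RNA of 12 mouse samples, labelled with Cy3, was hybridised once each to one-colour Agilent arrays. The references were embryonic stem (ES) cells of 129/Ola mice, mouse embryonic fibroblasts (MEF) and spheres of MEF transduced with Bmi1, labelled as neural stem cell-like (NSC-like), each on 1 array. Reprogrammed lines, called induced pluripotent stem (iPS) cells, filled 9 arrays, and Oct4 was used for each of them. They were 2 Bmi1-Oct4 lines, 1 line from NSC-like cells treated with Shh before Oct4, 2 from such cells treated with oxysterol and 2 with purmorphamine before Oct4, all with embryonic fibroblasts as the labelled cell type, and 2 oxysterol-Oct4 lines from adult tail-tip fibroblasts. Shh, oxysterol and purmorphamine activate hedgehog signalling. Each line is 1 clone on 1 array, so p-values measure only the spread between these arrays, and each lone reference array is taken to have the spread of the lines. Whether fewer cells of a type or less RNA per cell lies behind a bulk difference cannot be told apart.

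The labelled cell types were checked against marker lists. The 10 pluripotency genes had a median of 3.67 in ES and between 3.4 and 4.4 in the lines, against -4.97 in MEF and -5.1 in the spheres, on a log2 scale relative to each array's 75th percentile (the scale of every level below). In the spheres 6 of 9 neural stem genes were well above background, with Nes at 0.41 and Pax6 at -2.92. Sox2 at -9.14, Prom1 at -8.97 and Slc1a3 at -8.74 were not. In MEF and in ES 7 of the 9 were well above background. The median of the 9 was -4.32 in the spheres, -0.67 in MEF and -2.03 in ES. MEF had Nes at 0.30 and Pax6 at -8.02. The 14 fibroblast genes had a median of 2.91 in MEF, -0.22 in the spheres and -4.07 in ES. Among the lines that median was -0.17 in tail-tip line 2, -0.46 in purmorphamine-Oct4 line 2 and -0.85 in oxysterol-Oct4 line 1, and between -4.73 and -3.13 in the other 6.

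Several members belong to families of similar sequence, and a pair of Fzd2 and Fzd7 probes shows how close they are. These are the dimmer probes of both genes, well above background on 9 arrays (Fzd2) and 4 (Fzd7), and the Fzd2 and Fzd7 levels given later come from other probes. Both have 60 bases. Aligned, they overlap over 50 bases and are identical at 42 of them. The probes of Fzd8 and Wnt8a were left out when pairs were compared. This Fzd2 and Fzd7 pair was the most similar among the 1579 pairs compared of probes for different members, whose median was 20 identical bases. The probes are printed 5′ to 3′ with capitals marking bases that differ from, or lie beyond, the other probe. This Fzd2 probe lies at chr11:102715340-102715399 and this Fzd7 probe at chr1:59735681-59735740, both on the plus strand of the mm7 build named in the array files. How far one transcript is read by the other's probe was not tested.
Fzd2: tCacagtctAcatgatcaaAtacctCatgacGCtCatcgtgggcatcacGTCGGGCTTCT
Fzd7: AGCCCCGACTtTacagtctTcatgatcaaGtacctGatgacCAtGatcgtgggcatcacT

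The probe of Wnt5a, the ligand with the clearest change, is shown because it crosses a splice junction: its 60 bases span 3871 bases of the genome, chr14:25948244-25952114 on the plus strand of mm7.
Wnt5a: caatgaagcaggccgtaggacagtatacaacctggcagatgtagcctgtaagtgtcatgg

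The map of all 42 members shows where the signal lay. MEF stood apart through Wnt2, Wnt5a, Fzd1, Fzd2, Dkk2, Dkk3 and Frzb, and the spheres through low Fzd10, Sfrp1 and Dkk3.

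**Figure D1:**
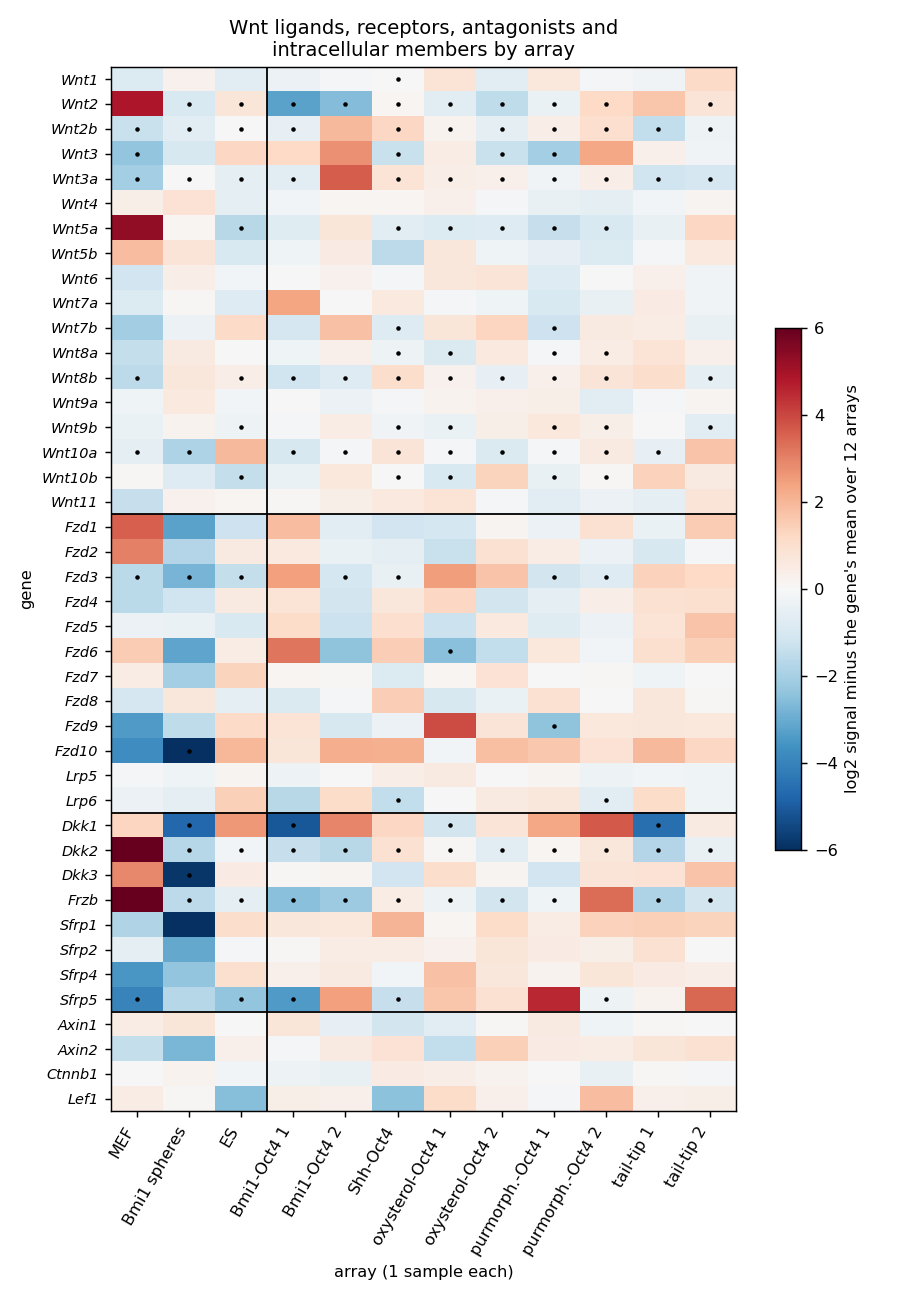
Each cell is a member's log2 signal on 1 array (columns) minus that gene's mean over the 12 arrays, from blue (lower) to red (higher), with values beyond 6 units drawn in the end colours. Dots mark signals not well above background, and lines separate ligands, receptors, antagonists and intracellular members (top to bottom) and the references from the 9 iPS lines; Wnt5a, Dkk2 and Frzb are high in MEF, and Fzd10 and Sfrp1 are lowest in the spheres.

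The first question was which members differ between reprogrammed lines and fibroblasts. In the iPS lines, 3 of 42 members were higher than in MEF (Fzd10, Sfrp4 and Sfrp1) and 4 were lower (Frzb, Dkk2, Wnt5a and Fzd2), by limma with Benjamini-Hochberg adjusted p under 0.05 over all genes. Over all genes tested, 8.04% were higher and 2.7% lower. The median difference of the members was 0.56 log2 units, beside 0.44 over all genes; the latter was 0.27 with normexp background correction and 0.12 after quantile normalization, so changes are best read relative to that shift. The direction of each of these 7 members was the same under all 4 scalings. By role, 1 ligand fell, 1 receptor rose and 1 fell, 2 antagonists rose and 2 fell, and no intracellular member passed.

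Wnt5a, a ligand best known for signalling without beta-catenin, was at -0.28 in MEF, -5.46 in the spheres and -7.27 in ES. In the 9 lines it ran from -6.99 to -4.33 with a median of -6.31, and 4 of the 9 signals were well above background. All lines lay below MEF, and the difference of -5.73 (SE 0.85) had an adjusted p of 0.00216 by limma; with dim signals raised to the lowest signal well above background on their array it was -4.83 (adjusted p 0.0032). Wnt2, a canonical ligand of mesenchyme, had a like layout without passing: -1.45 in MEF, -7.23 in the spheres, -5.57 in ES and -9.50 to -4.63 in the lines (median -6.70), where only tail-tip line 1 was well above background. Its difference of -5.37 (SE 1.58) rests on dim signals and was -3.98 with these raised in the same way (adjusted p 0.0331). The unraised difference had an adjusted p of 0.0563, which fell to 0.0439 without Bmi1-Oct4 line 1 and to 0.0429 without tail-tip line 1.

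Among the receptors, Fzd10 rose. It was at -2.34 in MEF, not well above background at -9.20 in the spheres, 3.38 in ES and 1.24 to 3.57 in the lines (median 2.997). All 9 lines were above MEF, and the difference of 5.11 (SE 0.78) had an adjusted p of 0.00258. A second Fzd10 probe, well above background on all 12 arrays, differed by only 0.32 between lines and MEF, so the rise rests on 1 of 2 probes.

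Fzd2 went the other way, at 1.72 in MEF, -3.04 in the spheres, -0.76 in ES and -2.62 to -0.36 in the lines (median -1.64). No line reached MEF; the difference was -3.20 (SE 0.76, limma adjusted p 0.0234), and the dimmer Fzd2 probe printed above differed by -2.14. Fzd1 was at 1.57 in MEF, -5.21 in the spheres, -3.23 in ES and -3.16 to -0.14 in the lines (median -2.35). Its difference from MEF of -3.47 (SE 1.07, adjusted p 0.0664) missed the threshold, and had an adjusted p of 0.0363 without Bmi1-Oct4 line 1 and of 0.0498 without tail-tip line 2.

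The antagonists moved in both directions. Sfrp1 was at 1.56 in MEF, -5.06 in the spheres, 4.43 in ES and 3.47 to 5.39 in the lines (median 4.45). The lines exceeded MEF in 9 of 9 cases, by 2.80 (SE 0.64, adjusted p 0.0198, limma), and a dimmer second probe gave 4.35. Sfrp4 was at -4.74 in MEF, -3.61 in the spheres, -0.30 in ES and -1.40 to 0.49 in the lines (median -0.74). Its rise of 4.03 (SE 0.58) had an adjusted p of 0.00172, again with every line above MEF.

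Frzb, also called Sfrp3, was at 0.86 in MEF and not well above background in the spheres (-8.33), in ES (-7.30) or in 8 of the 9 lines. The exception was purmorphamine-Oct4 line 2 at -3.41, and the lowest line was at -9.27 with a median of -7.84. The difference from MEF was -8.23 (SE 1.68, adjusted p 0.0117), a size that rests on dim signals: with these raised to the lowest signal well above background on their array it was -6.41 (adjusted p 0.00801). Dkk2 was at -1.23 in MEF and not well above background on the other 11 arrays, at -8.89 in the spheres, -7.37 in ES and -8.93 to -6.27 in the lines (median -7.62). It was at least 21.8-fold lower in the lines (adjusted p 0.00233), where the bound sets each dim signal to the lowest signal well above background on its array.

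**Figure D2:**
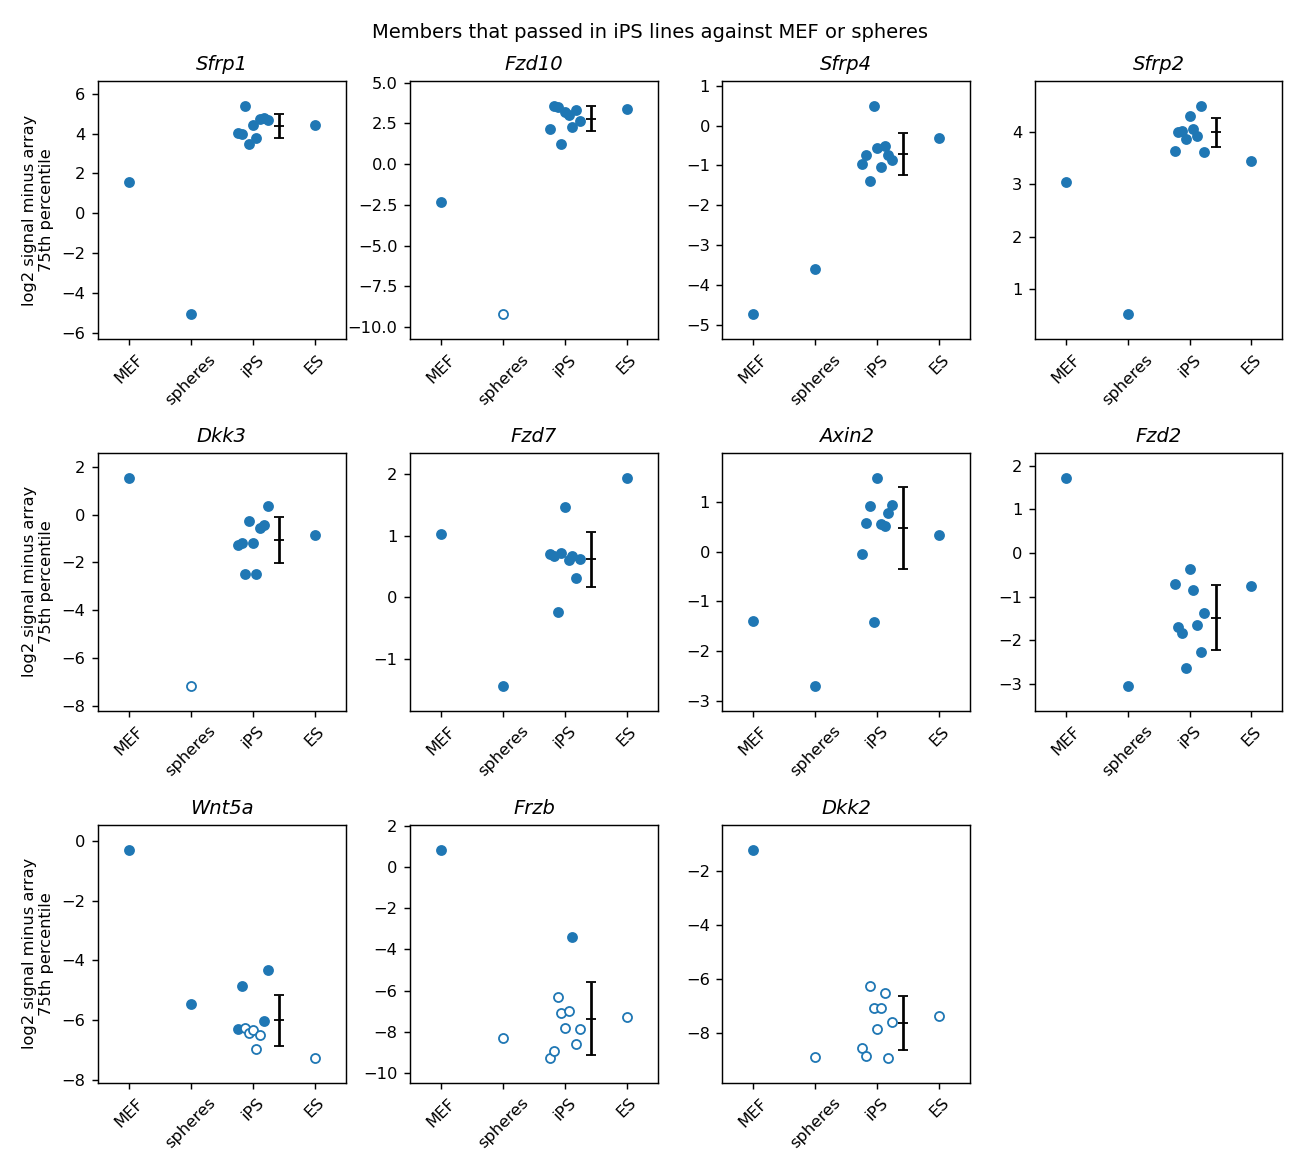
Points are arrays, filled where the signal was well above background, on the log2 scale relative to the array's 75th percentile, with the 9 iPS lines followed by their mean and SD (bar). The 11 members shown passed in the lines against MEF or against the spheres; Sfrp1, Fzd10 and Sfrp4 are above MEF in all 9 lines, and Fzd2, Wnt5a, Frzb and Dkk2 are below it.

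MEF, ES and the 2 Bmi1-Oct4 lines were on 1 slide. Within that slide none of the 7 passed (adjusted p 0.134 to 0.195 on 4 arrays), while each kept its direction, with differences of 5.19 for Fzd10, 3.89 for Sfrp4, 2.44 for Sfrp1, -2.91 for Fzd2 and -5.30 for Wnt5a. With slide as a fixed block, 6 members passed: Sfrp1 (adjusted p 0.106) and Fzd2 (0.112) were lost and Wnt2 was gained (0.00701). Fzd2 also missed the threshold in the 8-group model (0.0863) and when all its probes were averaged (0.127). The 6 that passed with slide as a fixed block were 2 higher and 4 lower, beside 5.06% and 1.86% of all genes. Without the 3 lines highest in fibroblast genes, again 3 members were higher and 4 lower, beside 8.25% and 3.5% of all genes.

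Promoter sequences from RefSeq (GRCm38.p6) were matched for 29 of the 44 members, and among the 7 above for Fzd10, which rose, and for Frzb and Dkk2, which fell. They are shown because the CpG content of a promoter is a feature the array does not measure. The 250 bases before the start of transcription are given 5′ to 3′ on the gene's strand, with each CG in capitals: chr5:128600856-128601105 (plus strand) for Fzd10, chr2:80447397-80447646 (minus) for Frzb and chr3:132085042-132085291 (plus) for Dkk2.
Fzd10: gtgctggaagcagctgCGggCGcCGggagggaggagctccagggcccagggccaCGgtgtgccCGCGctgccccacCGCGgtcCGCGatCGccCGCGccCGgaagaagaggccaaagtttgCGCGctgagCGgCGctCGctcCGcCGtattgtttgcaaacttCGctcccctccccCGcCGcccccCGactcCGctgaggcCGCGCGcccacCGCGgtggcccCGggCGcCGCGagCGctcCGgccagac
Frzb: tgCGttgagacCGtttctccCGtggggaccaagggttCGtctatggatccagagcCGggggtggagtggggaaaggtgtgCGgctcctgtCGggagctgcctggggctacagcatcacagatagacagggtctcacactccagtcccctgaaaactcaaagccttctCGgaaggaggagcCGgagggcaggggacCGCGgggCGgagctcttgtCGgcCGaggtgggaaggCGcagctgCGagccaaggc
Dkk2: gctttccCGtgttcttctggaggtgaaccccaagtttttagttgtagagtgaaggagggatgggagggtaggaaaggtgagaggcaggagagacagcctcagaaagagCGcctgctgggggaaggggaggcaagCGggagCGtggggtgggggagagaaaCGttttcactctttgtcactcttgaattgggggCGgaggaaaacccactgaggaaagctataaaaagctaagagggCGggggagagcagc

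The Fzd10 window held 37 CpG, the Frzb window 16 and the Dkk2 window 7. Over the 36 windows of members the median was 21 CpG, and over 32851 windows of all genes it was 6. Matches of 7 bases to the Tcf and Lef1 motif (CTTTG followed by AT, TT, AA or TA, on both strands) were in 13.9% of the members' windows (5 of 36) and in 14.8% of all windows. None of the 3 printed windows holds one. Dkk1 holds 2, and Fzd7 and Wnt5b are among the others.

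**Figure D3:**
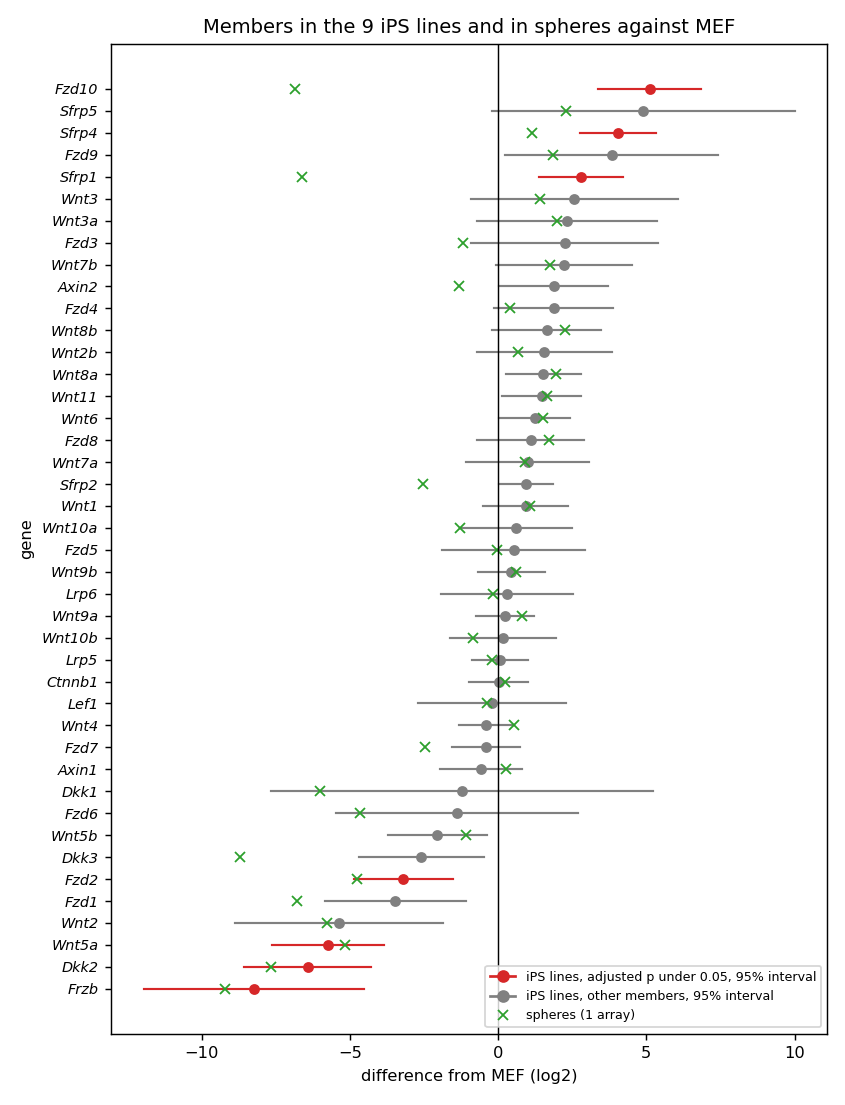
Circles are the mean difference of the 9 iPS lines from MEF in log2 units with the 95% interval of the limma fit, red where the adjusted p was under 0.05, and crosses are the spheres minus MEF, 1 array against 1, without an interval. Fzd10 and Sfrp1 lie above MEF in the lines and below it in the spheres, whereas Wnt5a, Dkk2, Frzb and Fzd2 lie below it in both.

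Against the spheres, 7 members were higher in the iPS lines and 0 lower: 4 antagonists (Sfrp1, Dkk3, Sfrp2 and Sfrp4), the receptors Fzd10 and Fzd7, and Axin2. Over all genes tested, 5.69% were higher and 2.66% lower. The members' median difference was 0.72, beside 0.00 over all genes. No ligand passed, and the 18 ligands had a median difference of -0.15, while the 12 receptors had 1.76 and the 8 antagonists 3.19. This comparison shares the line arrays with that against MEF, so the values stand side by side and are not independent.

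Sfrp1 showed a difference of 9.42 (SE 0.64, adjusted p 6.72e-06 by limma), with the sphere signal at -5.06 and the lowest line at 3.47. The dimmer second Sfrp1 probe, well above background on 7 arrays, gave 4.48. On the probe used, Fzd10 was at least 839-fold higher in the lines, its sphere signal being not well above background (limma adjusted p 5.18e-06). Its second probe, well above background on all 12 arrays and at -2.65 in the spheres, differed by only 1.31. The direction was the same, but the size rests on 1 of 2 probes. Dkk3, a Dickkopf relative that is not a typical Lrp antagonist, was at 1.54 in MEF, -0.85 in ES and -2.49 to 0.37 in the lines (median -1.18), and not well above background in the spheres at -7.18. It was at least 58.9-fold higher in the lines (adjusted p 0.00258), although all lines lay below MEF.

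Sfrp2 was at 3.05 in MEF, 0.52 in the spheres, 3.44 in ES and 3.62 to 4.50 in the lines (median 4.004), and exceeded the spheres by 3.47 (SE 0.41, adjusted p 0.000414). Sfrp4 exceeded them by 2.901 (SE 0.58, adjusted p 0.0116). The sphere array was thus lower than the lines in 4 antagonists, named here because they passed in this comparison. Lower than the lines did not always mean lower than MEF: Sfrp4 was at -3.61 in the spheres and -4.74 in MEF.

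Fzd7, a receptor expressed in pluripotent cells, was at 1.02 in MEF, -1.44 in the spheres, 1.94 in ES and -0.24 to 1.46 in the lines (median 0.67). The lines exceeded the spheres by 2.06 (SE 0.52, adjusted p 0.0360), and its dimmer probe printed above gave 1.31. Axin2, both a brake on the pathway and one of its target genes, was at -1.39 in MEF, -2.70 in the spheres, 0.35 in ES and -1.42 to 1.49 in the lines (median 0.59), a difference of 3.19 (SE 0.83, adjusted p 0.0404). Oxysterol-Oct4 line 1 was the low line for Axin2, at the level of MEF. These 2 calls were the least firm: Axin2 was lost (adjusted p 0.0585 to 0.0618) without any 1 of Bmi1-Oct4 line 2, the Shh-Oct4 line, either purmorphamine-Oct4 line or either tail-tip line. Fzd7 was lost (0.0534 to 0.0568) without either Bmi1-Oct4 line, either purmorphamine-Oct4 line or tail-tip line 2.

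With slide as a fixed block, 4 of the 7 passed (Sfrp1, Fzd10, Sfrp2 and Dkk3), and within the slide of the spheres, with 3 lines, 3 members passed: Sfrp1 (9.47, adjusted p 0.0185), Fzd10 (0.0183) and Fzd6 (4.18, adjusted p 0.0499), which was not among the 7 and is named after its value was seen. Over all genes, slide as a fixed block gave 4.27% higher and 1.62% lower. The share over all genes within the slide of the spheres was not computed, so its 3 calls have no background beside them. Without the 3 lines highest in fibroblast genes, 6 passed and Fzd7 was lost (limma adjusted p 0.0939), beside 5.69% higher and 2.69% lower over all genes.

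Bmi1 spheres were then set against MEF, the cells they came from, 1 array against 1 and so with no test. Of 42 members, 11 were at least 2-fold higher and 15 at least 2-fold lower in the spheres, beside 33% higher and 17.6% lower over all genes. The split was 4 higher and 15 lower with normexp, 6 and 16 after quantile normalization, and 8 and 15 with dim signals raised to the array's lowest signal well above background. Shares over all genes were not computed for these alternatives, so the splits cannot be set against all genes. The median of all genes was 0.37 here, 0.20 with normexp and 0.16 after quantile normalization. Among the 8 antagonists, 6 were lower and 2 higher. Among the ligands 7 were higher and 3 lower, and among the receptors 2 and 5.

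The sphere signal was not well above background for Dkk3 (at least 356-fold lower than MEF), Frzb (at least 223-fold), Dkk2 (at least 52.4-fold), Wnt2 (at least 44.99-fold), Fzd10 (at least 24.2-fold) and Dkk1 (at least 13.5-fold). The second Fzd10 probe, well above background on both arrays, read -2.65 in the spheres and -1.66 in MEF. Dkk1, an Lrp5 and Lrp6 antagonist, was at -3.18 in MEF, -9.18 in the spheres and -1.87 in ES. Measured decreases were -6.77 for Fzd1, -6.62 for Sfrp1, -5.17 for Wnt5a, -4.76 for Fzd2, -4.67 for Fzd6, -2.53 for Sfrp2 and -2.46 for Fzd7. The higher members changed less. Sfrp5 was not well above background in MEF (-8.87) and at -6.57 in the spheres, at least 1.21-fold higher, and Wnt8b likewise went from -8.92 to -6.66, at least 1.14-fold higher, with ES (-6.92) and 8 of the 9 lines (-8.54 to -6.26, median -7.09) not well above background.

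No member differed between iPS lines and ES by limma (0 of 42; 3 at an unadjusted p under 0.05: Lef1, Wnt10a and Fzd7; lowest adjusted p 0.982). Over all genes tested, 0.00759% were higher and 0.019% lower, so this comparison called almost nothing, and 1178 genes had an unadjusted p under 0.05. The widest of the 3 was Lef1, the transcription factor partner of beta-catenin, at -1.56 in ES, 1.43 in MEF, 1.07 in the spheres and -1.46 to 2.85 in the lines (median 1.33). Its interval ran from 0.30 to 5.29. All 9 lines were above ES, the Shh-Oct4 line at -1.46 by the least and the other 8 at 0.94 or higher. A second Lef1 probe also read low in ES, at -2.08 against a mean of -0.36 in the lines.

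Fzd7 was lower than ES in all 9 lines, by -1.33 (95% interval -2.48 to -0.18). Wnt10a was at -5.10 in ES, and not well above background in MEF (-7.59), in the spheres (-8.88) or in the lines (-8.02 to -5.32, median -7.14) except tail-tip line 2.

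ES itself differed from MEF by at least 2-fold in 13 members upward and 11 downward, 1 array against 1, beside 26.7% higher and 20.8% lower over all genes. The largest measured rises were Fzd10 (5.72), Fzd9 (4.55), Sfrp4 (4.44), Wnt7b (3.22) and Sfrp1 (2.86). The same 5 genes had positive mean differences from MEF in the lines. Both sets of differences use the same MEF array, so they are not independent. The second Fzd10 probe read -0.67 in ES and -1.66 in MEF. Wnt3, a canonical ligand, was not well above background in MEF (-7.36) and was at -5.96 in the spheres and -3.78 in ES, at least 8.39-fold higher in ES than in MEF; the lines ran from -7.05 to -2.25 (median -4.72). Wnt7b was at -5.81 in MEF, -4.07 in the spheres, -2.59 in ES and -4.96 to -1.99 in the lines (median -3.30). Wnt5b was lower, at 0.71 in MEF, -0.36 in the spheres, -2.06 in ES and -2.72 to -0.47 in the lines (median -1.39); a second Wnt5b probe differed less between lines and MEF (-0.49 against -2.04). Fzd4 was at -4.37 in MEF, -3.97 in the spheres, -2.22 in ES and -3.86 to -1.53 in the lines (median -2.07).

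The 5 iPS groups did not separate. By limma's F test 0 of 42 members passed, as did 0% of all genes (3 members and 2330 genes had an unadjusted p under 0.05), with a lowest member adjusted p of 0.395. The test rests on 4 residual degrees of freedom, so this does not show that the groups are alike.

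Dkk1 and Sfrp5 varied over 8.78 and 7.91 log2 units, the widest ranges as measured, and over 6.47 and 6.91 with dim signals raised to the lowest signal well above background on their array. Dkk1 was not well above background in Bmi1-Oct4 line 1 (-9.59), tail-tip line 1 (-9.01) and oxysterol-Oct4 line 1 (-5.59). Its other lines were at -3.93 in tail-tip line 2, -3.73 in oxysterol-Oct4 line 2, -3.26 in the Shh-Oct4 line, -2.19 and -0.81 in the purmorphamine-Oct4 lines and -1.58 in Bmi1-Oct4 line 2. In the Bmi1-Oct4, oxysterol-Oct4 and tail-tip groups, then, 1 line had a signal and its partner did not. A second Dkk1 probe was well above background on only 1 array.

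Sfrp5 ran from -8.27 in Bmi1-Oct4 line 1, not well above background, to -0.36 in purmorphamine-Oct4 line 1 (median -3.97), while ES at -7.21 was not well above background. Fzd9 was at -5.82 in MEF, -3.95 in the spheres and -1.26 in ES, and ran from -4.82 in purmorphamine-Oct4 line 1 to 1.52 in oxysterol-Oct4 line 1 (median -1.76). Fzd6 was at -1.07 in MEF, -5.74 in the spheres and -2.12 in ES. It was highest in Bmi1-Oct4 line 1 (0.66) and lowest in oxysterol-Oct4 line 1 (-5.07) and Bmi1-Oct4 line 2 (-5.01), with a median of -1.92. The 2 Bmi1-Oct4 lines thus lay far apart for Dkk1, Sfrp5 (-8.27 and -2.39) and Fzd6.

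The 3 lines with the highest fibroblast median had Dkk1 at -5.59, -0.81 and -3.93 and Fzd6 at -5.07, -2.75 and -1.15, so they did not sit together. The only line with Frzb well above background, purmorphamine-Oct4 line 2, was among them; the part of fibroblast RNA in this was not tested.

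**Figure D4:**
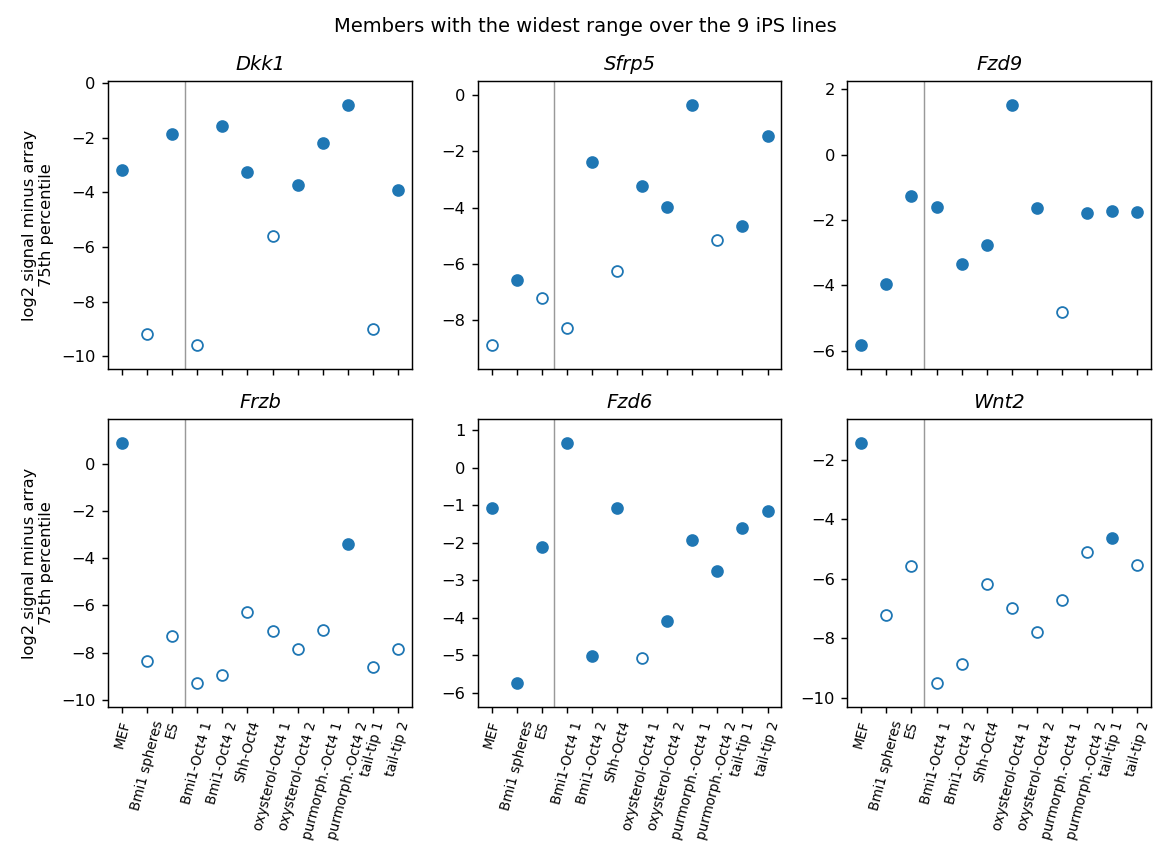
Each panel gives a member's log2 signal relative to the array's 75th percentile on each of the 12 arrays, filled where well above background. The 6 members shown have the widest range over the 9 lines with dim signals as measured. With dim signals raised, Lef1 (4.31) and Wnt3a (4.02), not shown, ranged wider than Frzb (3.87) and Wnt2 (3.08). Dkk1 spans 8.78 units and Sfrp5 7.91 with dim signals as measured, and the 2 lines of a group often lie far apart.

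The remaining members varied less. The co-receptor Lrp5 stayed between 4.92 and 5.76 in the lines, but its probe was saturated on 11 arrays, so a rise could not be seen. Beta-catenin itself (Ctnnb1) was at 4.37 in MEF, 4.60 in the spheres, 4.24 in ES and 3.92 to 4.90 in the lines, a difference from MEF of 0.01 (95% interval -0.99 to 1.02). The other 2 Ctnnb1 probes, also well above background on all 12 arrays, gave 0.36 and 1.81, so the size of any difference depends on the probe. Among ligands well above background on all 12 arrays, the lines ran from -1.62 to -0.80 for Wnt4 (MEF -0.77), -0.08 to 1.49 for Wnt6 (MEF -0.41), -2.23 to -1.19 for Wnt9a (MEF -1.82), -1.97 to -0.55 for Wnt11 (MEF -2.72) and -2.36 to 0.91 for Wnt7a (MEF -2.29). Receptors Fzd5 (-1.49 to 1.52; MEF -0.53) and Fzd8 (-2.09 to 0.33; MEF -2.13) and the scaffold Axin1 (-3.23 to -1.41; MEF -1.70) complete that set. A probe named only by an older synonym of Fzd5 differed by 2.15 between lines and MEF where the Fzd5 probe differed by 0.52; with such probes used, 4 members were higher than MEF.

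For the others the signal was well above background on some arrays only: Wnt1 on 11, Lrp6 on 10, Wnt8a on 8, Wnt10b on 7, Wnt9b on 6, Fzd3 on 5 and Wnt2b and Wnt3a on 1, in both cases Bmi1-Oct4 line 2. None of these passed between lines and MEF (adjusted p of at least 0.119). Probes named only by a synonym were well above background on all 12 arrays for Fzd3, where they gave -1.22 between lines and MEF against 2.25 for the probe used, and for Lrp6, with 1.78 against 0.30. For Wnt9a the second probe gave -2.12 between lines and MEF where the one used gave 0.24, and for Wnt6 3.48 against 1.23, so these genes depend on the probe.

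The rest of the pathway was read from 2 lists. Of 73 other Wnt pathway genes compared, 9 were higher and 3 lower in the lines than in MEF, beside 8.04% and 2.7% of all genes, with a median difference of 0.28 beside 0.44 over all genes. The 6 with the largest change were Nkd2, an inhibitor acting on Dishevelled, which fell by 7.03 (adjusted p 0.0102; -6.01 with dim signals raised, since 1 of 9 lines was well above background), Dkkl1, a Dickkopf-like secreted protein, at least 34.5-fold higher (0.0124), the planar polarity cadherins Celsr3 (4.28, 0.000462) and Celsr1 (4.04, 0.00159), Dact2 (3.90, 0.0495) and Kremen2, a Dkk receptor, at least 2.80-fold higher (0.0198), all by limma. With dim signals raised Kremen2 missed the threshold (adjusted p 0.103). Dact2 missed the threshold when any of 8 lines was left out (0.0637 to 0.0725; all but oxysterol-Oct4 line 1). Without the 3 lines highest in fibroblast genes, 9 genes of the list were higher and 1 lower, beside 8.25% and 3.5% of all genes. With slide as a fixed block, 4 were higher and 2 lower, beside 5.06% and 1.86%.

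Of 47 known beta-catenin target genes compared, 6 were higher and 2 lower than in MEF, beside 8.04% and 2.7% of all genes, with a median difference of 0.02 beside 0.44. The members that moved most include transcription factors of pluripotent cells: Esrrb (10.57, adjusted p 5.12e-07), Nr5a2 (at least 209-fold, 3.86e-05), Tfcp2l1 (7.90, 1.04e-05) and Mycn (6.496, 0.00231). Sp5, a direct target of the pathway, was higher by 4.71 (0.0021), and Ccn5, a matricellular protein, fell by 9.71 (0.00723, limma); with dim signals raised the difference was -7.94, since 1 of 9 lines was well above background. Esrrb was also in the pluripotency list. Without the 3 lines highest in fibroblast genes, 6 were higher and 6 lower than MEF, beside 8.25% and 3.5% of all genes. Against the spheres, 9 genes of the pathway list were higher and 0 lower, and 6 targets were higher and 2 lower, beside 5.69% and 2.66% of all genes.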

How the data were processed

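Agilent arrays read in Cy3 alone, with 60-base probes, held 1 RNA sample each, 12 in all. The deposited intensity values are background-subtracted signals from Agilent Feature Extraction 9.5.3.1, per the file headers; further steps by the authors are not given in the labels or headers. The deposited files also flag spots as well above background, saturated or outlier. The sphere sample is called iPS in its description and NSC-like in its source label; the latter was used.

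Of 45018 spots, 43379 carried 41174 gene probes. Outlier spots were dropped, spots of a probe were averaged as log2 signal, and the array's 75th percentile (1340 to 2156 intensity units) was subtracted. Probes well above background on at least 1 array were kept, and the probe with the highest mean stood for its gene, leaving 26389 of 28751 genes. Probes were named by accession (22951), current symbol (6659) or synonym (1736) through RefSeq; 9828 kept the deposited name. Between 58.4% and 80.0% of spots were well above background, which, with the number of arrays, limits precision. A gene dim in a whole group has a bound: each dim signal was set to the higher of itself and its array's lowest signal well above background (-7.27 to -4.20).

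limma 3.58.1 in R 4.3.3 fitted 4 classes (iPS lines, ES, MEF, spheres; 8 residual degrees of freedom) and, for the 5 iPS groups, 8 groups (4 residual degrees of freedom), over all genes, with Benjamini-Hochberg adjustment and a threshold of 0.05. ES against MEF and spheres against MEF, 1 array each, used a 2-fold threshold and no test. Members passing any test, or at least 4-fold apart in a comparison of 1 array with 1, are given in full, as are up to 6 genes of each other list with the largest change that passed against MEF; members named for a missed threshold, a wide spread or disagreeing probes were chosen after their values were seen. The members and lists were chosen with earlier results of these data known. Other marker lists were read as medians in MEF, spheres and ES: smooth muscle 3.16, 0.07 and -0.52, keratinocytes -2.42, -3.53 and -3.58, blood -3.49, -2.82 and -3.61, endothelium -4.85, -7.02 and -3.19, primitive endoderm -2.62, -2.65 and -0.44, mesoderm and primed epiblast -6.72, -6.85 and -6.03. Alternatives are named under the closing section. Clone numbers did not pair the lines (correlations of -0.157 to 0.239 over 6 pairs of groups). Promoter windows of 250 bases came from RefSeq.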

Additional observations from a re-analysis of the deposited data

Results flagged for a closer look

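Among the 9 iPS lines, 1 line stood outside the spread of the others in 4 of the 42 members, by the gap to its nearest neighbour over the whole range (above Dixon's 95% critical value for 9 samples). Chance flags about 1 in 20 groups, and the share over all genes was not computed. Lef1 was lowest in the Shh-Oct4 line at -1.46, the next line being at 0.94. A second Lef1 probe, well above background on all 12 arrays, read -0.56 in that line. On it oxysterol-Oct4 line 2 (-1.92) and tail-tip line 1 (-0.79) were lower, so this flag rests on the probe used. Sfrp4 was highest in oxysterol-Oct4 line 1 at 0.49, the next at -0.52. Wnt3a was highest in Bmi1-Oct4 line 2 at -3.25, the only array on which it was well above background, the next line being at -6.09. Wnt7a, a ligand known from the nervous system, was highest in Bmi1-Oct4 line 1 at 0.91, the next at -0.87.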

How the results depend on the processing

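ES, MEF and the spheres had 1 array each, so every difference from them carries the error of 1 hybridisation. Of 109 alternative counts of members called, 106 were within 1.5 times the reported count. The exceptions were iPS lines against MEF on the slide of MEF only (0 in place of 7, on 4 arrays) and iPS lines against spheres with slide as a fixed block (4 in place of 7) or on the slide of the spheres only (3). Leaving out each line in turn gave 7 to 9 members against MEF, 5 to 7 against spheres, 0 to 0 against ES and 0 to 0 between iPS groups. Without the 2 tail-tip lines, 8 members passed against MEF, 5 against spheres and 0 against ES. By limma, Wnt2 was gained against MEF (adjusted p 0.0416), and Axin2 (0.0905) and Fzd7 (0.0720) were lost against spheres. Shares over all genes were not computed without the tail-tip lines. Single members were followed only if they passed against the spheres, or passed or came near passing against MEF. Of 381 alternative values for these, 0 reversed, 38 lost and 11 gained a call. Their differences were large, so reversals were unlikely from the start, and the other members were not followed. The cause of the lost and gained calls was not tested. With clone number as a replicate block, 7 members passed against MEF, 5 against spheres, 0 against ES and, over the 4 groups of 2 lines, 0 between groups; the numbers do not pair the lines. Slide as a fixed block could not be fitted in the test between iPS groups, since slide 1 held only the Bmi1-Oct4 group of them. Leaving out the 3 lines highest in fibroblast genes and using probes named by a synonym were chosen after seeing the data. Signals near background limit Wnt2, Wnt5a, Dkk2 and Frzb, whose sizes shrank with normexp background correction (to -3.06, -3.92, -3.49 and -5.43).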
